A study of Mus musculus with 12 samples.

Results

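Ephrins and their Eph receptors are membrane proteins through which neighbouring cells signal to each other by contact. Of the 56980 genes in the deposited count matrix, 10 were examined here, matched by their Ensembl identifiers (positions below are on GRCm39): the A ephrins *Efna1*, *Efna4* and *Efna5*, the B ephrins *Efnb1* and *Efnb2*, the A receptors *Epha2* and *Epha3*, and the B receptors *Ephb2*, *Ephb3* and *Ephb4*. All 10 passed the filter on low counts (a total of at least 10 over all libraries), as did 17691 genes in all. Bulk RNA-Seq was available for 12 libraries of W-20 cells, a murine bone marrow stromal cell (BMSC) line, with 3 libraries in each of 4 groups. WT cells were W-20 cells whose labels name no change, and Y428F cells were a stable W-20 line selected with puromycin to express FLAG-tagged YAP, the Hippo effector, from a CMV plasmid with the substitution Y428F, from tyrosine to phenylalanine. Each line was exposed for 2 hours to 50 nM parathyroid hormone (PTH) or to vehicle (PBS), and all cells were grown in DMEM with serum and antibiotics. The genotype label of the Y428F libraries reads WT, so their group was taken from their titles. The titles name Y428F alone, whereas the study's text on the RNA-Seq mostly gives the mutant cells a further serine-to-alanine change in YAP, so the line called Y428F here may have carried both. Counts per gene show neither change. Only 1 line of each kind was sequenced, so the substitutions, the added YAP, the selection and any other difference between the lines cannot be told apart. The labels do not say whether libraries came from separate cultures, so p-values measure the spread between these libraries. Library totals lay between 17513924 and 19018693 counts for vehicle and 17127897 and 17750085 counts for PTH in WT cells, and between 17670681 and 19057319 counts for vehicle and 17731876 and 18064022 counts for PTH in Y428F cells.

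A ephrins are anchored in the membrane by a lipid, whereas B ephrins span it and have a cytoplasmic tail. Eph receptors are the largest family of receptor tyrosine kinases. A receptors bind mainly A ephrins and B receptors mainly B ephrins, and binding signals forward into the receptor-bearing cell and in reverse into the ephrin-bearing cell, often to the actin cytoskeleton through small GTPases and Src-family kinases. In bone, ephrin-B2 and EphB4 are known as a pair through which osteoclasts and osteoblast-lineage cells contact each other, and PTH is known to act on *Efnb2* in osteoblasts.

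The labelled stromal origin was checked against marker genes. Of 12 stromal markers, 9 averaged at least 1 CPM (normalised counts, with library size corrected by edgeR's TMM factors). *Col1a2*, a chain of type I collagen, was the most abundant at 10000 CPM over the 12 libraries, whereas *Thy1* had 0 counts in every library, *Nt5e* at most 2 and *Lepr* at most 21. These markers moved with the line. With vehicle they summed to 27300 CPM (WT) and 19000 CPM (Y428F). Of 10 tested 7 were lower and 2 higher in Y428F cells, against 22.7% and 22.4% of all genes. In the same order *Col3a1* was at 836 and 203 CPM, *Pdgfrb* at 618 and 217 CPM and *Pdgfra* at 95.2 and 31.6 CPM, whereas *Ly6a* was at 138 and 324 CPM. The part of this shift in the line differences below was not tested. Of the 10, 1 was higher and 2 lower with PTH in each line. Of all genes, 7.42% were higher and 6.01% lower with PTH in WT cells, and 6.61% and 5.78% in Y428F cells. *Pdgfra* went with PTH from 95.2 to 62.8 CPM (WT) and from 31.6 to 19 CPM (Y428F). The part of such changes in the PTH responses below was not tested. With vehicle the osteoblast transcription factor *Runx2* was at 90.2 CPM (WT) and 73.2 CPM (Y428F) and *Spp1* at 768 and 489 CPM. Of the 4 osteoblast markers tested 2 were lower and none higher in Y428F cells, against 22.7% and 22.4% of all genes. The osteoblast-lineage genes *Sp7*, *Alpl*, *Bglap*, *Ibsp*, *Dmp1* and *Sost* never exceeded 7 counts in a library. Of 6 adipocyte markers, 4 averaged at least 1 CPM, and the hormone *Adipoq* was at 0. With vehicle the lipase *Lpl*, the most abundant, was at 330 CPM (WT) and 367 CPM (Y428F), *Pparg* at 31.7 and 39.9 CPM, *Cebpa* at 46.1 and 9.76 CPM and *Fabp4* at 26.9 and 6.57 CPM. Of the 5 tested, 2 were called higher and 2 lower in Y428F cells, against 22.4% and 22.7% of all genes, and the summed markers were at 435 and 424 CPM. In each line 1 of the 5 was higher and none lower with PTH, where *Pparg* was at 45.3 CPM (WT) and 65 CPM (Y428F). Because *Efnb2* and *Ephb4* are also expressed by endothelial cells, endothelial markers were summed, and their 8 genes gave 4.04 CPM (3.01 to 4.76) in WT cells with vehicle, 3.04 (2.68 to 3.44) with PTH, 10.2 (9.31 to 11.2) in Y428F cells with vehicle and 7.74 (7.24 to 8.26) with PTH. With vehicle the most abundant was *Vwf* in WT cells (2.37 CPM, and 1.18 CPM in Y428F cells) and *Cdh5* in Y428F cells (7.95 CPM, and 0.81 CPM in WT cells). Of the 6 tested, 1 was higher and 1 lower in Y428F cells with vehicle, near the 22.4% and 22.7% of all genes. No osteoblast or endothelial marker tested was called with PTH in either line. *Cldn5* was at 0, and *Pecam1*, *Kdr* and *Tie1* had at most 6, 5 and 3 counts in a library. With vehicle, summed hematopoietic markers were at 1.69 CPM (WT) and 4.5 CPM (Y428F), led by *Ptprc*, with *Cd3e* at 0. Summed epithelial markers were at 0.771 and 3.97 CPM, led by *Krt8*, with *Epcam* at 0. In Y428F cells with vehicle 2 of 5 tested hematopoietic and 3 of 4 tested epithelial markers were higher and none lower. Of all genes 22.4% were higher and 22.7% lower. These markers were low, with at most 64 counts in a library for *Ptprc* and 80 for *Krt8*.

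For 4 of the 10 genes, chosen by their values in these data, the 250 bases before the start of the canonical transcript are shown. They were read 5′ to 3′ on the strand of the gene from GRCm39 at the canonical transcript of GENCODE vM39. *Epha2* and *Ephb3* responded to PTH in both lines, *Efnb2* differed between the lines, and *Efna1* responded to PTH in WT cells. *Efna4* and *Ephb4* also responded to PTH in both lines and, like *Epha3*, differed between the lines, and their windows are not shown. Capitals mark matches, on either strand, to the cAMP response element (CRE) TGACGTCA, its core TGACG, or the TEAD element CATTCC. CREB, which PTH activates through cAMP, binds the CRE, and TEAD factors are the DNA-binding partners of YAP. The CArG box was searched by its consensus and had no match in the 10 windows.
Epha2: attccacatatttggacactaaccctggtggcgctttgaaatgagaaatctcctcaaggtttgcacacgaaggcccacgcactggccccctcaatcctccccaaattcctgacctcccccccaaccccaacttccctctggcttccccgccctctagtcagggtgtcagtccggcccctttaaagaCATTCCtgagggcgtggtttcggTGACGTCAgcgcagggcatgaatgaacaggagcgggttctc
Ephb3: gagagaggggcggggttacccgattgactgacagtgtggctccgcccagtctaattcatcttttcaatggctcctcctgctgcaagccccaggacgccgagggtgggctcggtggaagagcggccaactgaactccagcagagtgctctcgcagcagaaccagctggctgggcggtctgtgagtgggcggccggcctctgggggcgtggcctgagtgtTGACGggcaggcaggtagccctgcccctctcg
Efnb2: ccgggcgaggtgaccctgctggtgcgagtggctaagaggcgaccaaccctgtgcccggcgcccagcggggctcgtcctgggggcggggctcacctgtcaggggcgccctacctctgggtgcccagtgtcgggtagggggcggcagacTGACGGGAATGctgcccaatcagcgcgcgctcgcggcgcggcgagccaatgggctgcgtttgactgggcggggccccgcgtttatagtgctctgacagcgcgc
Efna1: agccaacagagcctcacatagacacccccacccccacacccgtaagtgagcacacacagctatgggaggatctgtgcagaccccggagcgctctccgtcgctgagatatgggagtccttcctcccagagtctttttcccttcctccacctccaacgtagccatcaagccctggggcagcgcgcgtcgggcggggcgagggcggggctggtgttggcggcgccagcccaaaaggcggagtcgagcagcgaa
These windows lie at chr4:141028290-141028539 (plus strand), chr16:21023248-21023497 (plus), chr8:8711250-8711499 (minus) and chr3:89186955-89187204 (minus). A full CRE was present in 1 of the 10 windows, that of *Epha2*, 41 to 34 bases before the start, and in 1.69% of the 21770 windows of protein-coding genes. The core, which the full CRE also contains, was found in 4 of the 10 windows (*Efnb1*, *Efnb2*, *Epha2* and *Ephb3*) and in 18.0% of all windows. The TEAD element was found in 3 of the 10 (*Efnb2*, *Epha2* and *Epha3*) and in 12.1% of all, and a CArG box in 1.40% of all. The windows of *Efna4* and *Ephb4* held none of these letters. In *Efnb2* the core and the TEAD element adjoin, and the *Efna1* window also held none of these letters. That window lies within the annotated *Efna1* gene, which begins further upstream than its canonical transcript, and bases before the gene were not searched. A match of letters is a description of the sequence and was not tested as a binding site.

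Levels of different genes were compared per kilobase of the canonical transcript. In WT cells with vehicle the order was *Efnb2* (61.5 ± 6.23 CPM per kilobase, SD, n = 3), *Ephb4* (44.4 ± 3.72), *Efna4* (34 ± 0.761), *Epha2* (31.3 ± 2.93), *Efna1* (30.2 ± 1.51), *Efna5* (15.3 ± 0.39), *Ephb3* (8.84 ± 0.529), *Efnb1* (6.45 ± 0.798), *Ephb2* (0.944 ± 0.0823) and *Epha3* (0.332 ± 0.0248). *Efna4* and *Epha2*, and *Epha2* and *Efna1*, were within their spread of each other. In Y428F cells with PTH the order was headed by *Epha2* (59.8 ± 2.63), followed by *Efna1* (32.2 ± 4.36), *Ephb4* (22.1 ± 1.18), *Efnb2* (21.6 ± 1.45), *Efna4* (18 ± 0.679) and *Efna5* (12.1 ± 0.669), with *Ephb4* and *Efnb2* within their spread. *Ephb3* (6.07 ± 0.508) and *Efnb1* (5.86 ± 0.351) were also within their spread, and *Ephb2* and *Epha3* were again lowest. *Efnb2* thus went from the highest of the 10 in WT cells with vehicle to the fourth place in Y428F cells with PTH, and *Epha2* from the fourth to the first. Over all 12 libraries the mean per-kilobase levels of *Efnb2* (43.6) and *Epha2* (42.3) were close, and with the summed length of all annotated exons in place of the transcript they changed places (30.2 and 35.4). The same change of length lowered *Efna1* from 28.1 to 12.1.

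**Figure D1:**
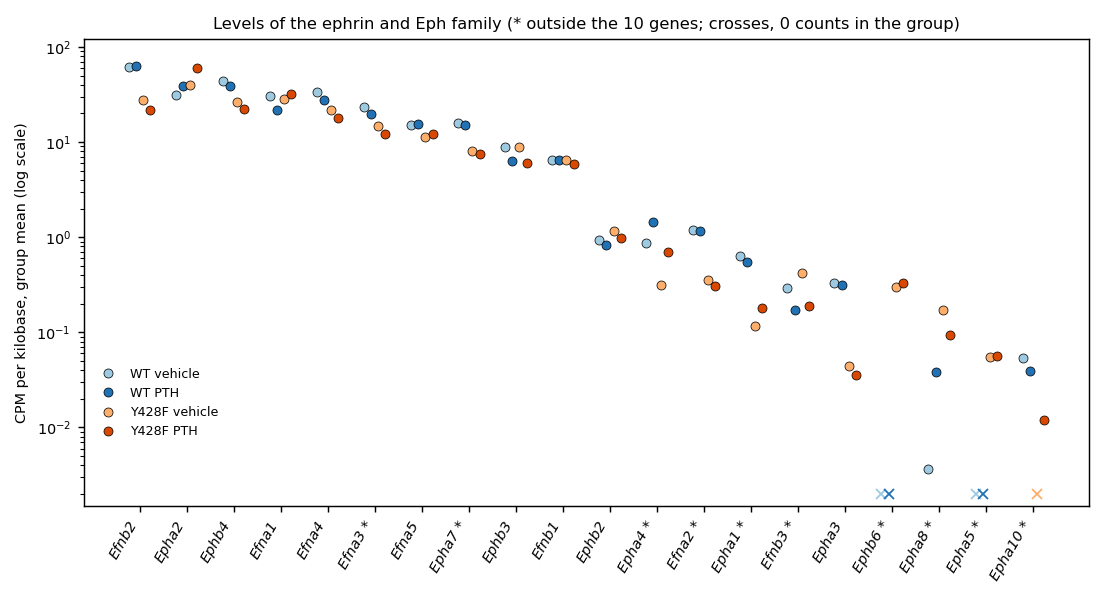
Group means of CPM per kilobase on a log axis for the 20 ephrin and Eph genes tested, ordered by their mean over 12 libraries; points are the 4 groups, asterisks mark genes outside the 10, and crosses mark groups with 0 counts. The first 10 genes from the left lie above 5 CPM per kilobase in every group and all others below 2.

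PTH changed 5 of the 10 genes in each line and, apart from *Epha2*, those that changed fell. In WT cells the count was 3, with none higher, without W20_PTH replicate 1 or 2. With all libraries, in WT cells the receptor gene *Epha2* was upregulated, and *Ephb3*, *Efna1*, *Efna4* and *Ephb4* were downregulated, by at most 1.41-fold. In these sentences and below a gene is called changed at an adjusted p under 0.05 in edgeR's quasi-likelihood test, fitted on all genes and all 12 libraries. Thus 1 of 10 rose and 4 fell with PTH in WT cells, where 7.42% of all genes tested rose and 6.01% fell. In Y428F cells 1 rose (*Epha2*) and 4 fell (*Ephb3*, *Efnb2*, *Ephb4* and *Efna4*), against 6.61% and 5.78% of all genes. The 10 genes were chosen with earlier results of these data known. Setting their counts, here and below, beside the shares of all genes is therefore no test of the family. The median log2 fold change of the 10 was -0.13 in WT and -0.26 in Y428F cells, and that of all genes -0.019 and -0.007. With library totals alone in place of TMM factors, the share of higher genes among all genes called fell from 55.2% to 37.3% in WT cells and from 53.4% to 38.1% in Y428F cells.

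Between the lines, the B ephrin *Efnb2* and its receptor *Ephb4* were both lower in Y428F cells, and so were *Epha3*, *Efna4* and *Efna5*. With vehicle, 5 of the 10 were lower and 2 (*Epha2* and *Ephb2*) higher in Y428F than in WT cells, against 22.7% and 22.4% of all genes. With PTH, 5 were lower and 2 (*Efna1* and *Epha2*) higher, against 23.0% and 22.8% of all genes. Median log2 fold changes of the 10 were -0.27 and -0.26, and those of all genes 0.012 and 0.019. A test of the difference in response between the lines (interaction) was past the limit for 1 of the 10, *Efna1*. That test called 0.170% of all genes as higher and 0.243% as lower in Y428F cells. The comparisons share libraries, and each value below is given by its own contrast.

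**Figure D2:**
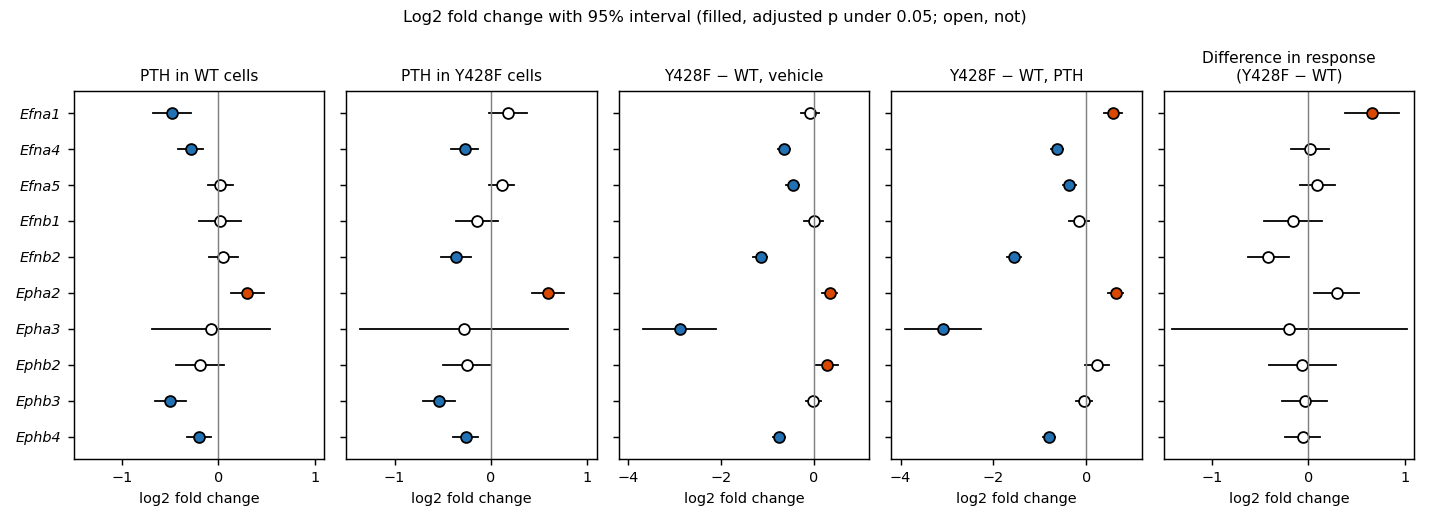
Log2 fold changes (points) with 95% intervals (lines) of the 10 genes in 5 comparisons; orange and blue points are higher and lower at an adjusted p under 0.05, open points are not past it, and the x axes of the PTH panels and the line panels differ. *Ephb3*, *Ephb4* and *Efna4* lie below 0 in both PTH panels and *Epha2* above, and *Efna1* alone is past the limit in the last panel.

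*Efna1* (ENSMUSG00000027954.10, chr3:89179037-89188449, 5 exons, minus strand), an A ephrin that is a main ligand of EphA2, was downregulated by PTH in WT cells and not in Y428F cells. In WT cells it had 42.1, 46.1 and 45.8 CPM with vehicle and 29.5, 29.5 and 36.8 CPM with PTH. All PTH libraries lay below all vehicle libraries, a log2 fold change of -0.48 (SE 0.0951, adjusted p = 0.0015, 1.4-fold lower). In Y428F cells it had 42.4, 41.4 and 42.9 CPM with vehicle and 53.4, 40.6 and 49 CPM with PTH. There the groups overlapped, with 2 PTH libraries above and 1 below the vehicle libraries, and the log2 fold change of 0.18 (95% interval -0.02 to 0.37, adjusted p = 0.26) was not past the limit. The difference between these responses was 0.66 on the log2 scale (SE 0.133, 95% interval 0.38 to 0.94, edgeR adjusted p = 0.0274). This call rested on each of several libraries. Its adjusted p was 0.0735 or 0.0747 without W20_VEH replicate 2 or 3, 0.116 or 0.0863 without W20_PTH replicate 1 or 2, 0.101, 0.12 or 0.0873 without Y428F_VEH replicate 1, 2 or 3, and 0.0813 or 0.111 without Y428F_PTH replicate 1 or 3, with values between 0.56 and 0.66. With vehicle the lines did not differ detectably (-0.08, 95% interval -0.27 to 0.11), and with PTH *Efna1* was higher in Y428F cells by 0.58.

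*Efna4* and *Efna5*, 2 further A ephrins, were lower in Y428F cells. *Efna4* (ENSMUSG00000028040.8, chr3:89240695-89245373, 4 exons, minus strand) had 56.1, 56.6 and 54.3 CPM in WT cells with vehicle, 43.2, 45.8 and 47.6 CPM with PTH, 36.5, 34 and 36.4 CPM in Y428F cells with vehicle and 29.4, 28.4 and 30.6 CPM with PTH. The 4 groups followed each other without overlap in that order. PTH lowered it by about the same amount in each line, with log2 fold changes of -0.29 (SE 0.064, adjusted p = 0.00405) and -0.27 (SE 0.0672, adjusted p = 0.0094), and the difference of the responses was 0.02 (95% interval -0.18 to 0.21). Without Y428F_VEH replicate 1, the adjusted p in Y428F cells was 0.0523. Between the lines *Efna4* was lower in Y428F cells (log2 fold change -0.64 with vehicle, 1.56-fold, adjusted p = 5.42e-08). *Efna5* (ENSMUSG00000048915.13, chr17:62909956-63188312, 5 exons, minus strand) had 82.9, 79 and 80 CPM in vehicle-treated WT cells and 58.2, 55 and 63.2 CPM in vehicle-treated Y428F cells (log2 fold change -0.46, SE 0.0634, adjusted p = 4.59e-06). With PTH it averaged 81.5 ± 3.51 and 63.4 ± 3.52 CPM (-0.36 between lines), and no change with PTH was detected in WT (0.02, 95% interval -0.11 to 0.15) or Y428F cells (0.11, -0.02 to 0.24).

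*Efnb2* (ENSMUSG00000001300.17, chr8:8667226-8711249, 5 exons, minus strand), the transmembrane ligand of EphB4, had the smallest p of the 10 for the line comparison with vehicle. WT cells had 272, 328 and 324 CPM with vehicle, and Y428F cells 139, 134 and 144 CPM. No Y428F library reached the lowest WT library, and the log2 fold change was -1.15 (SE 0.0721, 2.21-fold lower, adjusted p = 4.85e-11). With PTH, WT cells had 324, 336 and 297 CPM and Y428F cells 101, 116 and 107 CPM, a log2 fold change between lines of -1.56. PTH lowered *Efnb2* in Y428F cells by a log2 fold change of -0.37 (SE 0.0731, adjusted p = 0.00196), with all PTH libraries below all vehicle libraries, whereas in WT cells the groups overlapped at 0.05 (95% interval -0.10 to 0.20, adjusted p = 0.736). The difference of the responses, -0.42 (SE 0.102, 95% interval -0.63 to -0.20), was not past the limit at an adjusted p of 0.0997. It was past the limit with DESeq2 (0.0174), with no filter on low counts (0.00117), and without W20_PTH replicate 3 (0.0399) or Y428F_PTH replicate 2 (0.0375). *Efnb1* (ENSMUSG00000031217.9, chrX:98179680-98205454, 5 exons, plus strand), the X-linked B ephrin, was not called in any of the 5 comparisons. Its 12 libraries lay between 18.4 and 24.3 CPM with group means of 19.4 to 21.6 CPM, and its log2 fold change between lines with vehicle was 0 (95% interval -0.21 to 0.21).

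Among the A receptors, *Epha2* rose and *Epha3* was low. *Epha2* (ENSMUSG00000006445.4, chr4:141028540-141056695, 17 exons, plus strand) is the receptor tyrosine kinase that *Efna1* activates. It had 112, 122 and 135 CPM in WT cells with vehicle and 155, 169 and 130 CPM with PTH, so that 1 PTH library lay within the range of the vehicle libraries. In Y428F cells it had 159, 151 and 157 CPM with vehicle and 231, 246 and 227 CPM with PTH, with no overlap. *Epha2* was thus higher in PTH-treated Y428F cells than in every library of the other groups. The log2 fold change with PTH was 0.30 in WT cells (SE 0.0794, adjusted p = 0.0147) and 0.59 in Y428F cells (SE 0.0782, 1.51-fold, adjusted p = 2.95e-05). The call in WT cells was lost without W20_PTH replicate 1 (0.28, adjusted p = 0.0638) or replicate 2 (0.22, adjusted p = 0.104). The difference of the responses was 0.29 (95% interval 0.06 to 0.53, adjusted p = 0.541). Between lines *Epha2* was higher in Y428F cells by 0.34 with vehicle (adjusted p = 0.00127) and 0.64 with PTH. With vehicle, *Epha3* (ENSMUSG00000052504.8, chr16:63363897-63684538, 17 exons, minus strand) had 35, 31 and 38 counts in WT cells and 6, 4 and 4 counts in Y428F cells, a log2 fold change of -2.89 (SE 0.375, 7.4-fold lower, adjusted p = 1.89e-06). With PTH it had 25, 30 and 35 counts in WT cells and 2, 4 and 5 in Y428F cells, and at this depth a response to PTH was not detectable in either line (95% intervals -0.69 to 0.53 and -1.36 to 0.80).

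The B receptors *Ephb3* and *Ephb4* fell with PTH in both lines. *Ephb3* (ENSMUSG00000005958.16, chr16:21023495-21042057, 16 exons, plus strand) had the smallest p of the 10 for PTH in WT cells. It had 34.5, 38 and 38.6 CPM with vehicle and 25.9, 27.4 and 25.4 CPM with PTH in WT cells, and 37.2, 35.9 and 37.5 CPM with vehicle and 23.5, 27.7 and 25.1 CPM with PTH in Y428F cells. The vehicle libraries of both lines lay above all PTH libraries. Log2 fold changes were -0.50 in WT cells (SE 0.0778, 1.41-fold lower, adjusted p = 0.000161) and -0.53 in Y428F cells (SE 0.0775, 1.45-fold lower, adjusted p = 8.11e-05), and the 95% interval of their difference was -0.27 to 0.19. The lines did not differ detectably with vehicle (-0.01, 95% interval -0.16 to 0.15) or with PTH (-0.04). *Ephb4* (ENSMUSG00000029710.16, chr5:137348274-137376931, 17 exons, plus strand), the receptor of ephrin-B2, had 175, 203 and 203 CPM in WT cells with vehicle and 172, 166 and 166 CPM with PTH. In Y428F cells it had 117, 115 and 115 CPM with vehicle and 92.5, 94.3 and 102 CPM with PTH. Again the 4 groups did not overlap. Log2 fold changes with PTH were -0.20 in WT cells (SE 0.0604, adjusted p = 0.0297) and -0.26 in Y428F cells (SE 0.0621, adjusted p = 0.00747), and the gene was lower in Y428F cells with vehicle (-0.74, SE 0.0611, 1.67-fold, adjusted p = 2.85e-09) and with PTH (-0.80). The call in WT cells was lost with the 6 WT libraries fitted alone (adjusted p = 0.0768), without W20_VEH replicate 2 or 3 (0.15 or 0.137) and without W20_PTH replicate 1, 2 or 3 (0.0587, 0.0869 or 0.0614). *Ephb2* (ENSMUSG00000028664.15, chr4:136374850-136563351, 16 exons, minus strand) had 9.47, 10.3 and 11.3 CPM in vehicle-treated WT cells and 12.8, 12.8 and 12.3 CPM in vehicle-treated Y428F cells. Its higher level in Y428F cells (0.29, SE 0.116, adjusted p = 0.0459) was lost with DESeq2 (0.0677), with no filter (0.0517), with the replicate number as a block (0.0562), without W20_VEH replicate 1 or 2 (0.151 or 0.0945), without Y428F_VEH replicate 1, 2 or 3 (0.101, 0.0999 or 0.0705) and without Y428F_PTH replicate 2 (0.0508).

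**Figure D3:**
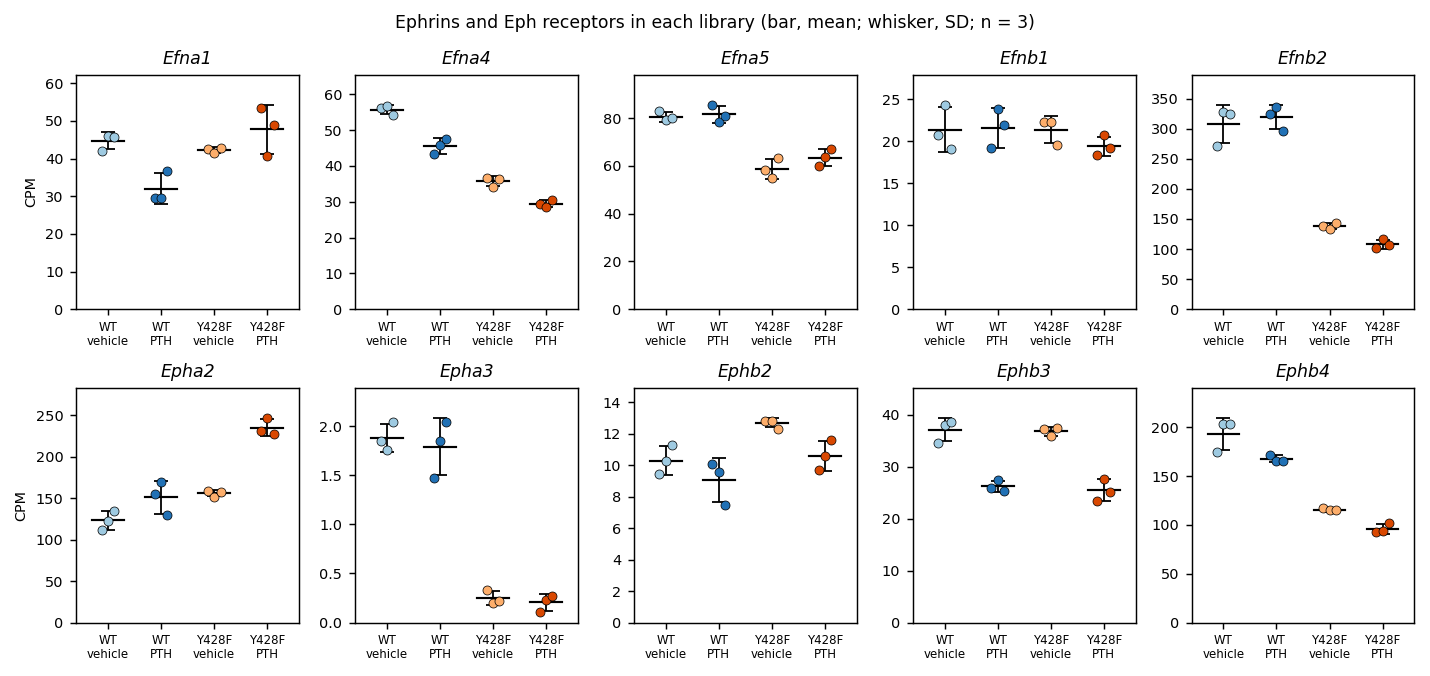
CPM of the 10 genes in each library (points) with group mean (bar) and SD (whisker), n = 3; the y axis of each panel starts at 0. *Efnb2* sits between 272 and 336 CPM in the WT libraries and between 101 and 144 CPM in the Y428F libraries, and *Ephb3* separates by treatment and not by line.

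Since RNA was extracted in bulk, fewer cells of a type and less RNA per cell cannot be told apart. The A ephrin *Efna4*, the B ephrin *Efnb2*, the receptor *Ephb4* and 3 other of the 10 genes overlap an annotated gene on the opposite strand, and the labels do not say whether the libraries kept the strand, so reads of such pairs cannot be told apart. The opposite-strand genes that were counted were assigned few reads over all 12 libraries, 195 for 4731419I09Rik at *Efna4*, 60 for *Zan* at *Ephb4*, and 6 and 1 for 4921522P10Rik and Gm45075 at *Efnb2*. On the same strand as *Efnb2*, E230020D15Rik, Gm45073 and Gm45074 were assigned 59, 17 and 6. Those on the opposite strand of *Efna5*, *Epha2* and *Ephb2* were not counted. Reads assigned to an overlapping gene do not show how many of its reads were counted for the ephrin or Eph gene.

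Of the 12 remaining ephrin and Eph genes, 10 passed the filter, and *Epha6* and *Ephb1* had 1 and 0 counts in all. With PTH in WT cells 1 rose (*Epha4*) and 1 fell (*Efna3*), and the same 2 genes did so in Y428F cells (of all genes 7.42% and 6.01% in WT cells and 6.61% and 5.78% in Y428F cells). With vehicle, 6 were lower in Y428F cells (*Efna2*, *Efna3*, *Epha1*, *Epha4*, *Epha7* and *Epha10*) and 3 higher (*Epha5*, *Epha8* and *Ephb6*), against 22.7% and 22.4% of all genes. *Epha5* and *Ephb6* passed the filter only through the Y428F libraries, and *Epha10* only through the WT libraries. The filter thus favoured the direction of their calls, which cannot be set against the shares of all genes. *Epha4*, a receptor that binds both ephrin classes, had 5.08, 5.8 and 5.69 CPM with vehicle and 9.26, 8.8 and 9.67 CPM with PTH in WT cells. It had 2.3, 1.36 and 2.29 CPM with vehicle and 4.6, 5.22 and 3.42 CPM with PTH in Y428F cells. PTH libraries lay above vehicle libraries in each line, with log2 fold changes of 0.74 (SE 0.165, adjusted p = 0.00419) and 1.16 (SE 0.201, adjusted p = 0.00057), and the line difference with vehicle was -1.48. *Epha7* was the most abundant receptor outside the 10, with 103, 103 and 117 CPM in vehicle-treated WT cells and 56.1, 55.5 and 52.7 CPM in their Y428F counterparts (-0.98, SE 0.0627, adjusted p = 6.71e-11). *Efna2* (2.59 ± 0.468 against 0.769 ± 0.215 CPM, log2 fold change -1.75) and *Epha1* (2.1 ± 0.182 against 0.383 ± 0.274 CPM, -2.42) were low and lower still in Y428F cells. The kinase-deficient receptor *Ephb6* had 0 counts in all WT libraries and 20, 28 and 23 counts in Y428F cells with vehicle, at least 23.2-fold higher when the WT group was set to a floor of 3 counts over its 3 libraries. On the same floor *Epha5* (with vehicle, 6, 16 and 3 counts in Y428F cells and 0 in WT) was at least 8.15-fold higher, and *Epha10* (0 counts in vehicle-treated Y428F cells, 3, 9 and 6 in WT) at least 6.13-fold lower. With vehicle *Epha8* had 1, 0 and 0 counts in WT cells and 13, 17 and 16 in Y428F cells. With PTH *Epha8* (1.28, 95% interval -0.23 to 2.78, adjusted p = 0.161) and *Epha10* (-1.60, 95% interval -3.67 to 0.47, adjusted p = 0.203) were not called between the lines. *Efnb3* had 8 to 31 counts with vehicle and was not called in any comparison.

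Levels per kilobase of the canonical transcript were summed for each ephrin and receptor class over the 20 genes tested. The 5 A ephrins summed, with vehicle, to 104 ± 2.46 CPM per kilobase in WT cells and 76.6 ± 2.49 in Y428F cells, and the 3 B ephrins to 68.3 ± 6.53 and 34.7 ± 0.574. The 8 A receptors summed to 48.9 ± 4.17 and 48.3 ± 0.975, and the 4 B receptors to 54.2 ± 4.32 and 36.8 ± 0.387. With PTH the A ephrins were at 85.9 ± 4.24 in WT and 74.7 ± 6.06 in Y428F cells and the B ephrins at 70.4 ± 4.28 and 27.6 ± 1.81. The A receptors were then at 56.2 ± 4.89 in WT and 68.4 ± 3.14 in Y428F cells, and the B receptors at 45.7 ± 0.887 and 29.5 ± 1.36. The most abundant genes in these sums were *Efnb2* for the B ephrins, *Ephb4* for the B receptors and *Epha2* for the A receptors. In the A receptors *Epha2* (31.3 and 39.6 CPM per kilobase with vehicle in WT and Y428F cells) and *Epha7* (15.7 and 8) differed in opposite directions. The sums were not tested and depend on the length used. With the summed length of all annotated exons, the mean over 12 libraries went from 28.1 to 12.1 for *Efna1* and from 11.6 to 6.34 for *Epha7*.

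*Efna1*, *Efna3* and *Efna4* are neighbours on chromosome 3 (chr3:89179037-89188449, chr3:89221203-89230272 and chr3:89240695-89245373 on the minus strand of GRCm39), with 32753 and 10422 bases between them and no other protein-coding gene there. *Efna3*, an A ephrin, had 51.9, 56.1 and 59.5 CPM with vehicle and 46.5, 45.8 and 48.6 CPM with PTH in WT cells, and 36.4, 33.8 and 34.5 CPM with vehicle and 31.7, 24.9 and 29.5 CPM with PTH in Y428F cells. Like *Efna4* it was lower with PTH in each line and lower in Y428F cells. Its log2 fold changes with PTH were -0.25 (adjusted p = 0.0383) and -0.28 (adjusted p = 0.0283), and between lines with vehicle -0.68 (adjusted p = 4.63e-07). The PTH calls of *Efna3* were lost with several libraries left out, in WT cells without W20_VEH replicate 2 or 3, W20_PTH replicate 1 or 2, any Y428F_VEH replicate or Y428F_PTH replicate 3 (adjusted p from 0.0573 to 0.176) and with the 6 WT libraries fitted alone (0.0543), and in Y428F cells without any Y428F_VEH replicate or Y428F_PTH replicate 2 or 3 (from 0.0541 to 0.151). The genes around them, a set chosen after their values were seen, were also mostly lower in Y428F cells. Of the 18 nearest other genes (mean expression 4 CPM or more), 16 lay below 0 in Y428F against WT cells with vehicle and 12 were called lower and 1 higher, against 22.7% and 22.4% of all genes, with a median of -0.48, whereas the median of chromosome 3 was -0.18. With PTH in WT cells 17 of the 18 lay below 0, 1 was called lower (of all genes 6.01%), and the median was -0.08, whereas 45.9% of the genes of chromosome 3 lay below 0 with a median of 0.02. With PTH in Y428F cells 13 of the 18 lay below 0 and 2 were called lower (of all genes 5.78%), with values from -0.27 to 0.37 and a median of -0.07, against 0.06 for chromosome 3. Most of these genes were thus lower in Y428F cells like *Efna3* and *Efna4*, *Efna1* (-0.08) was not called lower with vehicle, and the part of the neighbourhood in these differences was not tested. Around *Efnb2* on chromosome 8 the median of the 10 nearest genes was 0.10 in the same comparison, against -1.15 for *Efnb2* itself.

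**Figure D4:**
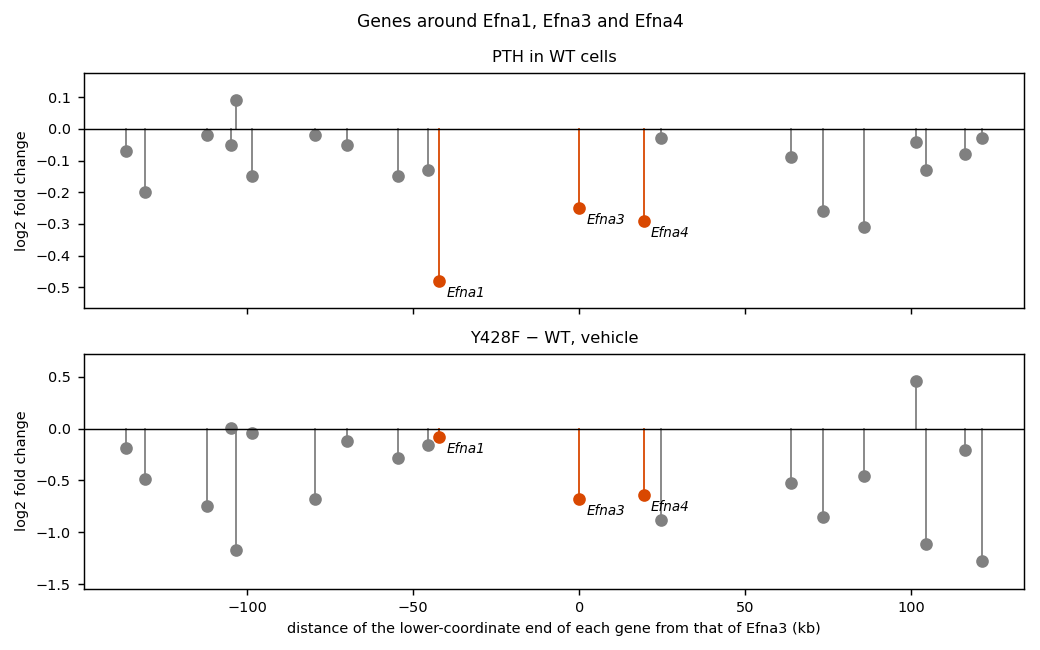
Log2 fold change of *Efna1*, *Efna3*, *Efna4* (orange) and the 18 nearest genes (grey) against distance in kb from *Efna3*, for PTH in WT cells (top) and Y428F against WT cells with vehicle (bottom); the y axes differ. *Efna1* at -0.48 is the lowest of the top panel, and most genes of the bottom panel lie below 0.

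Genes that act with ephrins and Eph receptors were described from 3 lists. These were written from general knowledge, but with earlier results of these data known, so their counts beside the shares of all genes are no test. Of 37 tested genes of forward signaling from the receptor, 4 rose and 4 fell with PTH in WT cells, where 7.42% of all genes rose and 6.01% fell, with a median of 0.05 against -0.019 for all genes. Those with the largest changes were *Sh2d3c* (-0.82, from 42.9 to 24.4 CPM), an Eph-binding adaptor, *Rock2* (0.68, from 110 to 177 CPM) and *Rock1* (0.49, from 84.8 to 119 CPM), kinases that act on the cytoskeleton, and the adaptor *Dok1* (-0.35, adjusted p = 0.0252). In Y428F against WT cells with vehicle 10 were higher and 10 lower, near the 22.4% and 22.7% of all genes, led by the adaptors *Grb10* (-2.90, from 119 to 16 CPM), *Sh2d3c* (-2.10, from 42.9 to 9.97 CPM) and *Grb14* (-1.73) and the Rac activator *Tiam1* (0.90, from 5.04 to 9.4 CPM). In Y428F cells 6 rose and 4 fell with PTH, where 6.61% of all genes rose and 5.78% fell. Of 12 tested genes of reverse signaling through B ephrins, 3 fell and none rose with PTH in WT cells: *Rgs3*, a G protein regulator that binds the tail of B ephrins (-0.81, from 40.1 to 22.9 CPM), *Pard6a* (-0.44) and the PDZ protein *Pick1* (-0.40). In Y428F cells 3 fell and 1 rose, against the same shares of all genes as above. Between the lines with vehicle 3 of the 12 were higher and 6 lower (of all genes 22.4% and 22.7%). The largest changes were those of the B ephrin phosphatase *Ptpn13* (-2.19, from 12.3 to 2.69 CPM), *Rgs3* (-0.98), *Tiam1* (0.90), which is also on the first list, and *Stat3* (-0.47). Of 14 tested genes of shedding and turnover, 1 rose with PTH in WT cells, the phosphatase *Ptpn12* (0.45, from 46.8 to 63.9 CPM), and none fell. In Y428F cells *Ptpn12* also rose (0.34), and 1 gene fell, *Adam19* (-0.61, from 33.9 to 22.2 CPM). Shares of all genes were 7.42% and 6.01% in WT cells and 6.61% and 5.78% in Y428F cells. With vehicle 3 were higher and 5 lower in Y428F cells (of all genes 22.4% and 22.7%), with the proteases *Mmp14* (-0.88, from 897 to 489 CPM) and *Adam19* (-0.57), the gamma-secretase subunit *Ncstn* (-0.48) and the ubiquitin ligase *Cblb* (-0.39) changed most. Of the 61 different genes in the 3 lists, edgeR called 0 for a difference in response between the lines, 5 had an unadjusted p under 0.05 (of all 17691 genes 1247), and DESeq2 called 1, *Rock2*. *Dok1* was not called without some single libraries (log2 fold changes from -0.42 to -0.27 over all of them), nor was *Pard6a* (from -0.51 to -0.34).

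The patterns most like those of *Efnb2*, *Ephb4* and *Ephb3* were sought among 10170 genes whose mean expression was 5 CPM or more, by Pearson's r of log2 CPM over the 12 libraries. The libraries form 4 groups, so a high r mainly reflects shared differences between groups. *Efnb2* was closest to *S1pr1*, a receptor of sphingosine-1-phosphate (r = 0.997), *Wdr13* (0.996) and *Lix1l* (0.994). *Ephb4* was closest to *Snx33* and *Slc27a1*, a fatty acid transporter (both 0.997), and *Mmp19* (0.995). *Ephb3*, which followed the treatment and not the line, was closest to *Cep131* (0.973), *Wdr91* (0.971) and *Iqce* (0.969).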

How the data were processed

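Bulk RNA-Seq of 12 W-20 libraries was used, grouped by their titles. The authors mapped reads with STAR 2.7.10b to GRCm39 with the GENCODE basic annotation vM31, and deposited RSEM expected counts per gene, with no scaling for library size. After rounding, edgeR 4.0.16 (R 4.3.3) was used for the quasi-likelihood test (TMM, all 12 libraries, genes reaching 10 counts in total), and p-values were adjusted by Benjamini-Hochberg over 17691 genes and judged at 0.05. Each SE was derived as the absolute log2 fold change over the square root of the test's F value. The 95% intervals were built from these SEs with the t distribution, so both are approximate. Gene names, lengths and sequences came from GRCm39 with GENCODE vM39, to which 56236 of 56980 identifiers were matched. The 10 genes and the lists were chosen with earlier results of these data known. All 10 genes, every other family gene tested, and up to 4 called genes per list in PTH in WT cells and in Y428F against WT cells with vehicle were named, by largest log2 fold change. Alternatives were DESeq2 1.42.0, other scalings and filters, the replicate number as a block, the 6 libraries of 2 groups, stricter limits, and each library left out. No pair of replicates was as alike as counting alone allows (12 pairs, chi-square over its degrees of freedom 2.87 to 14.2). Reads were not analysed here, and some marker genes are not reported here.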

Additional observations from a re-analysis of the deposited data

Results flagged for a closer look

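The log2 fold change of *Efna1* with PTH was 0.66 higher in Y428F than in WT cells (SE 0.133, adjusted p = 0.0274 in edgeR's test of the difference), which is why it is listed here. PTH-treated libraries lay below all vehicle libraries in 3 of 3 cases in WT cells and above all of them in 2 of 3 cases in Y428F cells. The adjusted p over the alternatives ranged from 3.61e-06 to 0.12.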

How the results depend on the processing

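The stricter limits were counted apart and are given below. Over the other alternatives, values of the 10 genes kept their direction and their side of the limit 874 times and lost a call 27 times. They gained a call 5 times and changed sign 34 times, the last only for values that were not called. With library totals alone, the medians of all genes shifted by less than 0.1 on the log2 scale, *Efna5*, *Efnb1* and *Efnb2* were at -0.04, -0.04 and 0 for PTH in WT cells, and *Ephb3* at 0.05 (vehicle) and 0.02 (PTH) between the lines. *Ephb3* with vehicle was at 0 with DESeq2, with its size factors and with the 6 libraries of the 2 groups. Under the stricter limits (0.01 for the adjusted p, 0.3 for the absolute log2 fold change), PTH in WT cells gave 1073 genes and 2 of the 10, PTH in Y428F cells 942 and 3, and the difference in response 22 and 0. For that difference DESeq2 called 124 genes and 2 of the 10, and no filter on low counts 216 and 2, in place of 73 and 1.

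When single libraries were left out, 3 to 5 of the 10 genes were past the limit for PTH in WT cells, 1435 to 2515 of all genes for PTH in Y428F cells, and 24 to 89 of all genes and 0 to 2 of the 10 for the difference in response. Uncalled values that changed sign ranged for PTH in WT cells from -0.02 to 0.05 (*Efna5*), -0.06 to 0.12 (*Efnb1*), -0.02 to 0.11 (*Efnb2*) and -0.18 to 0.04 (*Epha3*), for PTH in Y428F cells from -0.55 to 0.01 (*Epha3*), and between lines with vehicle from -0.07 to 0.1 (*Efnb1*) and -0.06 to 0.03 (*Ephb3*). For the difference in response they ranged from -0.03 to 0.05 (*Efna4*), -0.48 to 0.08 (*Epha3*), -0.19 to 0.04 (*Ephb2*) and -0.11 to 0.01 (*Ephb3*). The causes were not tested.

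Same-numbered libraries of different groups deviated together with a mean correlation of 0.0019 (from -0.0311 to 0.0371 over 18 pairs), so no pairing by number was seen over all genes tested. Pairing that affects only part of the genes could be missed by this check. With the number as a replicate block 2430 (PTH in WT cells), 2273 (PTH in Y428F cells), 7976 (lines with vehicle), 8027 (lines with PTH) and 76 genes (difference in response) were called, and among the 10 genes the only call that changed was that of *Ephb2* between lines with vehicle. At 17127897 to 19057319 counts per library, genes with a few counts such as *Epha3* in Y428F cells, *Epha5*, *Epha8* and *Epha10* allow no statement about their response to PTH, and with 3 libraries a group small changes could be missed.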
